A study of Rattus norvegicus with 80 samples.

Results

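Esr1 (ENSRNOG00000019358), Erbb2 (ENSRNOG00000006450) and Egfr (ENSRNOG00000004332) are the rat genes of estrogen receptor alpha, of the receptor HER2 and of the epidermal growth factor receptor. They were taken by identifier from a table of raw RNA sequencing counts with 32883 gene identifiers, of which these 3 are described here in every group of tissue and rat line. The study sequenced 80 libraries of Rattus norvegicus, taken from wildtype rats and 3 lines that carry a mutated Nf1. This gene encodes neurofibromin, which switches off Ras. The labels call the lines IF, PS and IFPS without spelling the names out, and give no age, treatment or allele beyond them.

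Whole mammary pads, which hold the gland and its fat, gave 6 wildtype, 6 PS, 6 IFPS and 3 IF libraries. Mammary epithelial cells (MECs), mature adipocytes and fibroblasts gave 3 libraries for wildtype and for each line, and tumors gave 9 PS, 9 IFPS and 5 IF libraries. Wildtype rats have no tumor group. The labels do not state which libraries came from the same animal, so a p-value measures only the spread between these libraries. The titles of IFPS tumors replicates 5 and 6 share a stem followed by R and a digit, unlike the other tumor titles. What this stands for is not given, and they were counted as separate tumors. The series calls the normal cell types flow sorted, while its extraction protocol describes MECs and fibroblasts as cultured near confluency and purified on a column. Pads, tumors and adipocytes were extracted with Trizol, so tissue, culture and extraction cannot be told apart when MECs or fibroblasts are set against the rest.

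Total counts ran from 17344717 to 37293141 per library. The 166 pairs of libraries within a group were compared by chi-square over genes. The lowest ratio of chi-square to degrees of freedom was 8.70, above sampling noise, so no pair looked like the same library sequenced again. Each library was counted as 1 replicate, though this check cannot show that libraries came from different animals. No table here pairs the other identifiers with symbols (0 of 32883 matched), so the level of Nf1, the defining markers of the labelled cell types, the ligands of these receptors and their target genes were not analysed here. In their place, cell content is described by 3 scores, each the mean log2 CPM of genes at least 4-fold higher in 1 wildtype cell type than in each of the other cell types. The MEC-enriched score has 1020 genes, the adipocyte-enriched score 1209 and the fibroblast-enriched score 356, none of them a receptor gene. These genes were chosen on the same libraries, so the scores are descriptions of them.

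Estrogen receptor alpha is a nuclear receptor that binds estradiol and acts as a transcription factor. In the mammary gland a subset of luminal epithelial cells carries it, and estrogen signaling through it drives growth of the ducts, partly through ligands that act on the EGF receptor in the stroma. EGFR and HER2 are receptor tyrosine kinases of the ERBB family. EGFR binds ligands of the EGF family, HER2 has no known ligand of its own and pairs with other family members, and both activate Ras, which neurofibromin restrains. Estrogen receptor and HER2 are used to classify human breast tumors.

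The 250 bases before the gene start that RefSeq lists on assembly GRCr8 are shown so that the sequence next to each start can be read beside the levels. The deposited counts were made on Rnor_6.0, and positions are on GRCr8, plus strand. They are chr1:43641845-43642094 for Esr1, chr10:83907351-83907600 for Erbb2 and chr14:95378376-95378625 for Egfr. Capitals mark a GC box, the letters GGGCGG on either strand.

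Esr1: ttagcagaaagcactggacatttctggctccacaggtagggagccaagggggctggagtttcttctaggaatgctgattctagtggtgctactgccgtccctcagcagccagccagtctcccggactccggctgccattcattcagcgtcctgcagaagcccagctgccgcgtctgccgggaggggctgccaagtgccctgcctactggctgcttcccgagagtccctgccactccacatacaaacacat

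Erbb2: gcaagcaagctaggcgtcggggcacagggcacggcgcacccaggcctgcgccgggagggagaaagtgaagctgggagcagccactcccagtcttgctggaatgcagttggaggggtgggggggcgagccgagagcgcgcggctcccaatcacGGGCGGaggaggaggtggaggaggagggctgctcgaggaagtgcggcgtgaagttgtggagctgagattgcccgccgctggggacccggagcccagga

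Egfr: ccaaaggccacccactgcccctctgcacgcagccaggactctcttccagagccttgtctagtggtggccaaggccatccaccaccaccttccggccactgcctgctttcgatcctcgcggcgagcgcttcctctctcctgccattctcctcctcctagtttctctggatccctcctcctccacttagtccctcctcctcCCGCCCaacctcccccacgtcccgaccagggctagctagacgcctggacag

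The Erbb2 and Egfr windows each held 1 GC box and the Esr1 window held 0. Of 33469 RefSeq windows of the same length, 30.5% held one. None of the 3 windows held the letters TATAAA (12.9% of windows did) or the estrogen response element GGTCANNNTGACC (0.0239% did), each searched on both strands. G and C made up 59.6% of the Esr1 window, 69.2% of the Erbb2 window and 63.6% of the Egfr window, against a median of 51.2%. These are matches of letters, and no binding was measured.

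Each receptor gene had its own order of tissues. Levels are CPM, counts relative to the library total, in the usual CPM unit, after scaling with edgeR's TMM factors over all 80 libraries. They are not divided by gene length, so a level is compared between libraries and not between genes. The mean level differed 129-fold between the highest and lowest of the 19 groups for Esr1, 11.5-fold for Egfr and 5.14-fold for Erbb2.

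**Figure D1:**
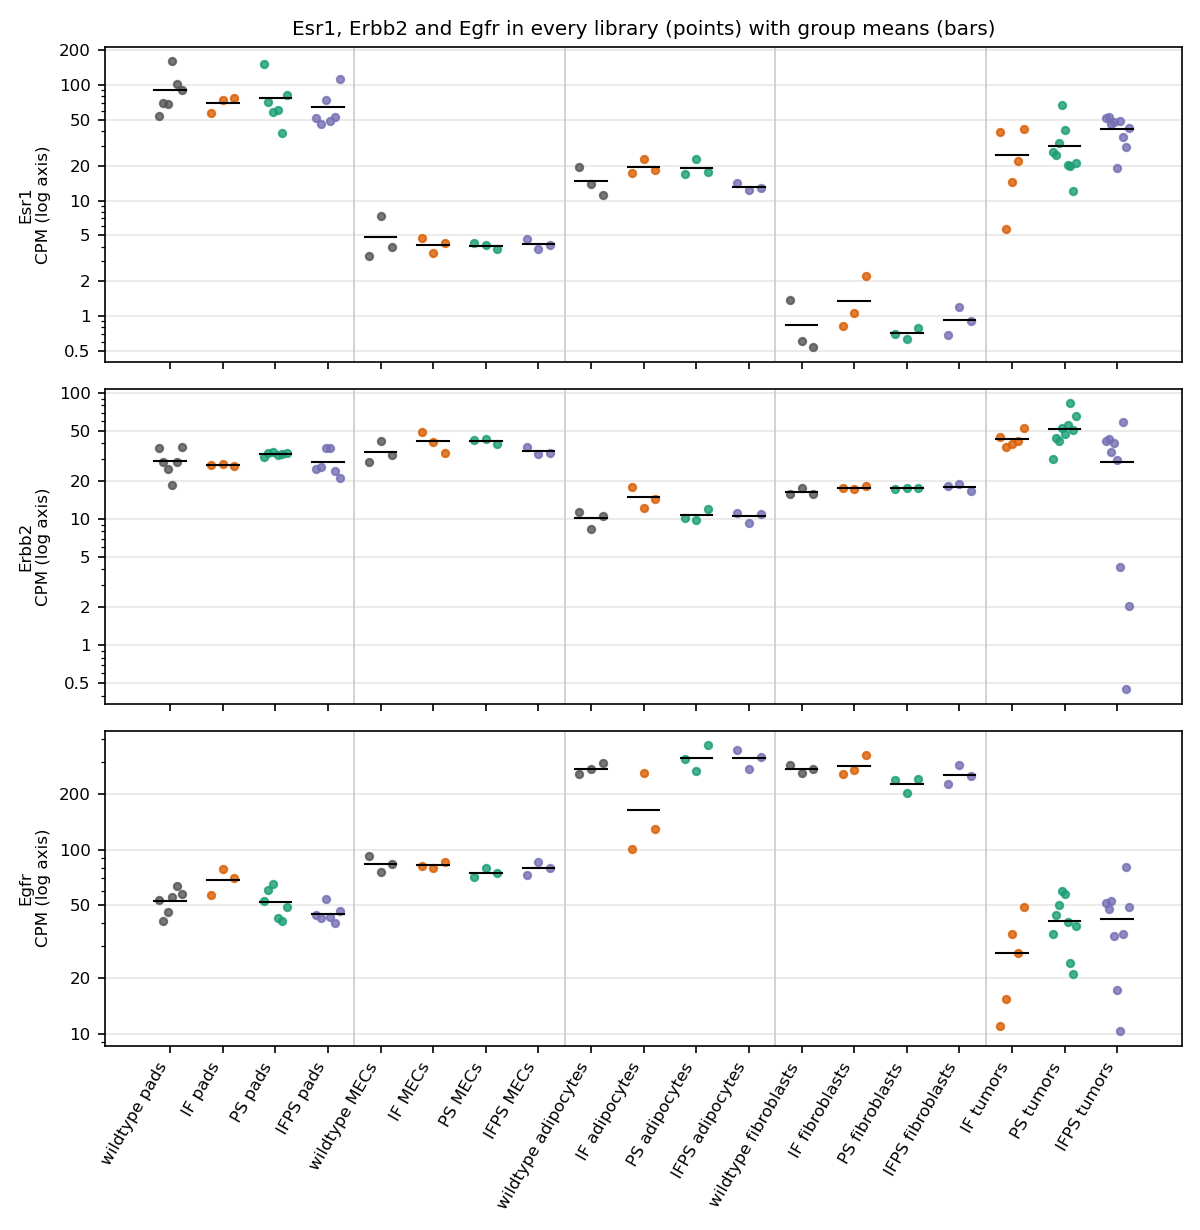
CPM of Esr1, Erbb2 and Egfr on log axes in each of the 80 libraries (points) of 19 groups of line and tissue, with group means as bars. Esr1 was highest in pads and lowest in fibroblasts, Egfr was highest in adipocytes and fibroblasts, and 3 IFPS tumors lay far below all other libraries for Erbb2.

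Esr1 was highest in whole pads. The 21 pads ran from 38.6 to 161 CPM with a median of 69.9, and the group means were 91.1 ± 38.2 (SD, n = 6) in wildtype, 77.1 ± 39.1 (n = 6) in PS, 69.8 ± 10.5 (n = 3) in IF and 64.3 ± 25.4 (n = 6) in IFPS. Tumors came next, with means of 41.5 ± 11.5 (n = 9) in IFPS, 29.5 ± 16.6 (n = 9) in PS and 24.7 ± 15.6 (n = 5) in IF. Adipocytes held 11.2 to 23.1 CPM over 12 libraries, MECs 3.30 to 7.40 and fibroblasts 0.53 to 2.21. In fibroblasts this rests on 12 to 49 counts per library. All 12 adipocyte libraries lay above all 12 MEC libraries, and those above all 12 fibroblast libraries. Between wildtype cell types alone, 64.7% to 74.6% of genes did not overlap, so such a split does not set Esr1 apart. No share over all genes was computed for splits pooled over lines or for neighbouring groups, here and for the other receptors. No isolated cell type reached the level of any pad, whose cell makeup is not known. In bulk samples such as pads and tumors, fewer cells of a type and less RNA per cell cannot be told apart. Of 18 neighbouring groups in the order of means, 2 had ranges that did not overlap, IFPS adipocytes over wildtype MECs and PS MECs over IF fibroblasts.

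Egfr had another order. Adipocytes of PS (316 ± 51.9 CPM, SD, n = 3), IFPS (314 ± 38.4) and wildtype (275 ± 19.4) and fibroblasts of all lines (means 228 to 285) were highest. MECs followed at 70.8 to 92.4 CPM over 12 libraries, pads at 39.9 to 78.4 over 21 libraries, and tumors at 10.3 to 80.8 over 23. IF adipocytes stood between, at 164 ± 86.2. The 24 adipocyte and fibroblast libraries all lay above the other 56, with IF adipocyte replicate 1 the lowest of them at 101 CPM. The share of all genes split in this way was not computed. Only 1 pair of neighbouring groups in the order of means had ranges that did not overlap.

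Erbb2 varied least between groups. PS tumors had 52.4 ± 15.3 CPM (SD, n = 9) and IF tumors 43.2 ± 5.88 (n = 5). The 12 MEC libraries ran from 28.3 to 49.2, and the 21 pads from 18.6 to 37.5. Fibroblasts were at 15.9 to 19.1 and adipocytes lowest at 8.42 to 17.9. In the order of means, 2 of 18 neighbouring groups had ranges that did not overlap, IF pads over IFPS fibroblasts and IF adipocytes over PS adipocytes. IFPS tumors were the exception to this narrow spread, from 0.45 to 58.5 CPM, and are described with the other tumors.

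The wildtype cell types were compared first, to describe the receptor transcripts in each preparation. The protocol describes MECs and fibroblasts as cultured, so cell type, culture and extraction cannot be told apart when they are set against adipocytes. Wildtype MECs had the highest Erbb2, wildtype adipocytes the highest Esr1, and both stromal cell types had about 3 times the Egfr of MECs (3.10-fold in adipocytes and 3.29-fold in fibroblasts). Of 9 values (3 genes in 3 comparisons), 8 passed edgeR's quasi-likelihood test, in which a gene counts as different at a Benjamini-Hochberg adjusted p under 0.05 over all genes tested. Cell types differ widely, and 59.3% of 15928 genes passed between MECs and fibroblasts, 73.4% between MECs and adipocytes and 69.7% between adipocytes and fibroblasts, so a call by itself sets no receptor apart. The replicate values and fold sizes say more.

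The 3 wildtype adipocyte libraries had 19.5, 14.01 and 11.2 CPM of Esr1, the 3 MEC libraries 3.30, 7.40 and 3.94, and the 3 fibroblast libraries 1.38, 0.61 and 0.53. The 3 cell types did not overlap, as for 64.7% of genes between MECs and fibroblasts, 74.6% between MECs and adipocytes and 69.8% between adipocytes and fibroblasts. Esr1 in adipocytes was 16.7-fold higher than in fibroblasts (log2 fold change 4.06 ± 0.35 SE, edgeR adjusted p 3.62e-11) and 2.89-fold higher than in MECs, and in MECs it was 5.80-fold higher than in fibroblasts (2.54 ± 0.34, adjusted p 4.39e-07). The highest MEC value came from replicate 2. Erbb2 was 28.3, 41.4 and 32.6 CPM in MECs, 15.97, 17.8 and 15.94 in fibroblasts and 11.5, 8.42 and 10.7 in adipocytes. Here too no groups overlapped, and MECs were 3.54-fold above adipocytes (1.82 ± 0.15, edgeR adjusted p 1.01e-11) and 2.04-fold above fibroblasts. Fibroblasts were 1.74-fold above adipocytes.

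Egfr was 256, 275 and 295 CPM in wildtype adipocytes and 287, 260 and 274 in wildtype fibroblasts, against 92.4, 76.1 and 84.1 in MECs. The adipocyte and fibroblast ranges overlapped. Their difference was the single value that did not pass, at -0.09 ± 0.19 on the log2 scale with a 95% interval from -0.47 to 0.29 (edgeR adjusted p 0.70). The 95% intervals here and below are normal ones built from the SE, slightly narrower than the edgeR test implies. MECs lay lower than fibroblasts by a log2 fold change of -1.72 ± 0.20 (edgeR adjusted p 3.12e-08) and lower than adipocytes by -1.63 ± 0.20 (3.25e-08).

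The next question was whether the receptors differed in normal tissue of the mutated lines. Of 36 values (3 genes, 3 lines and 4 tissues, each against wildtype), 1 passed: Erbb2 was higher in IF adipocytes. Esr1 passed in 0 of 12 values and Egfr in 0 of 12. In 4 of the 12 comparisons few or no genes passed at all (0% in IF and IFPS pads, 0.0061% in PS pads and 0% in IFPS adipocytes). The share was 0.817%, 2.36% and 0.374% in IF, PS and IFPS MECs, 0.378% in PS adipocytes, 7.66%, 21.7% and 0.0648% in IF, PS and IFPS fibroblasts, and 48.2% in IF adipocytes. At an unadjusted p under 0.05, 3 of the 36 values passed. DESeq2 called 3 of 36, adding Egfr in IF adipocytes and Egfr in PS fibroblasts, and edgeR fits of only the 2 groups compared called 0.

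**Figure D2:**
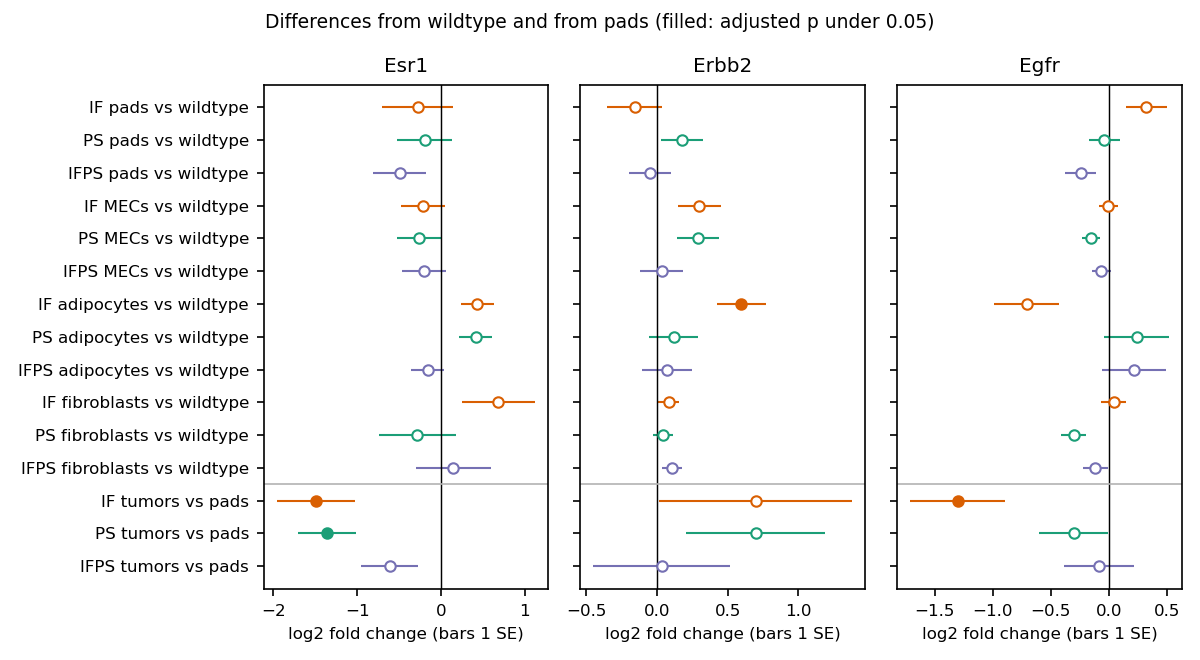
Log2 fold changes (x axis, bars 1 SE) of Esr1, Erbb2 and Egfr in each line against wildtype in 4 normal tissues, and in tumors against pads of the same line. Filled points passed an adjusted p of 0.05 in edgeR: Erbb2 in IF adipocytes, Esr1 in IF and PS tumors and Egfr in IF tumors.

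In pads none of the 9 receptor values passed. The log2 fold changes ran from -0.49 ± 0.32 (Esr1, IFPS) to 0.32 ± 0.18 (Egfr, IF). Esr1 in wildtype pads was itself split by the number in the sample title: pads numbered 1 to 12 held 54.3, 69.9 and 69.0 CPM and pads numbered 13 to 21 held 161, 102 and 89.9. The higher-numbered wildtype pads had more Esr1 in edgeR (log2 fold change 0.92 ± 0.23, adjusted p 0.0493, with 12.9% of genes called), while Egfr (0.37 ± 0.12, 0.0790) and Erbb2 (-0.05 ± 0.26, 0.913) did not pass. What the numbers stand for is not given. Over all pads, with the line in the fit, 2.9% of genes differed between the number sets, and none of the 3 receptors did. The tests of the lines hold the number set as a covariate. Within pads 1 to 12 alone, PS pads had more Esr1 than wildtype (0.56 ± 0.32, edgeR adjusted p 0.341), where over all pads the value was -0.20 ± 0.33. Neither value passed. IF pads all carry numbers 7 to 9, and their Egfr of 57.1, 78.4 and 70.1 CPM lay above the 53.2, 41.1 and 46.2 of wildtype pads 1 to 3. Within pads 1 to 12 this difference was 0.55 ± 0.15 (unadjusted p 0.00394 and adjusted p 0.572 in edgeR), against 0.32 over all pads, and 15.3% of genes had IF pads and these 3 wildtype pads that did not overlap. Over all 6 wildtype pads, at 41.1 to 63.7 CPM, the Egfr ranges overlapped.

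In PS pads Erbb2 was nearly constant, at 31.3 to 33.9 CPM over 6 libraries, and all 6 lay above the 3 IF pads (26.3 to 27.4). The difference of 0.33 ± 0.20 did not pass (edgeR adjusted p 0.771), and 2.71% of genes had PS and IF pads that did not overlap. Egfr in the 6 IFPS pads (39.9 to 53.7 CPM) lay below all 3 IF pads (57.1, 78.4 and 70.1). That difference, -0.57 ± 0.17, did not pass either (edgeR adjusted p 0.325), and 4.15% of genes had IFPS and IF pads without overlap.

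In MECs none of the 3 receptor genes passed in any line. Egfr had the narrowest intervals: against wildtype the log2 fold change was -0.00 in IF (95% interval -0.16 to 0.15), -0.16 in PS (-0.31 to -0.01) and -0.07 in IFPS (-0.22 to 0.09). The PS interval leaves out 0, yet 0 of the 9 receptor values in MECs had an unadjusted p under 0.05 in edgeR. Esr1 ran from 3.30 to 4.70 CPM in 11 of the 12 libraries, with wildtype replicate 2 at 7.40. Without that library each line's Esr1 lay slightly above wildtype in place of slightly below it. Erbb2 was 49.2, 41.0 and 33.8 CPM in IF MECs and 42.1, 43.5 and 39.1 in PS MECs, beside 28.3, 41.4 and 32.6 in wildtype. These ranges overlapped, and log2 fold changes of 0.30 ± 0.15 in IF and 0.29 ± 0.15 in PS did not pass (edgeR adjusted p 0.340 and 0.325).

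In fibroblasts Erbb2 hardly varied, with all 12 libraries between 15.9 and 19.1 CPM and log2 fold changes against wildtype of 0.04 to 0.11 (SE 0.07 each). Egfr was 238, 204 and 244 CPM in PS fibroblasts, below each of the wildtype values of 287, 260 and 274. The log2 fold change was -0.31 ± 0.11 (edgeR adjusted p 0.0685), and 39.3% of genes had PS and wildtype fibroblasts that did not overlap. PS fibroblasts also lay below all 3 IF fibroblasts (257, 272 and 327 CPM), by -0.34 ± 0.11 (adjusted p 0.0965 in edgeR, with 30.1% of genes not overlapping). Esr1 in fibroblasts was too low for small differences to be detected. Its largest difference from wildtype, 0.69 ± 0.44 in IF, has a 95% interval from -0.18 to 1.55. PS fibroblasts, at 0.70, 0.63 and 0.79 CPM, lay below all 3 IF fibroblasts, at 0.82, 1.06 and 2.21. That difference was -0.97 ± 0.44 and did not pass (edgeR adjusted p 0.225, 95% interval -1.82 to -0.11), with 17 to 49 counts per library behind it.

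IF adipocytes were the normal tissue in which the receptors differed most. Their Erbb2 was 17.9, 12.2 and 14.6 CPM, all above the wildtype values of 11.5, 8.42 and 10.7, and 51.1% of genes had groups that did not overlap in this comparison. The rise was 1.51-fold (log2 fold change 0.60 ± 0.18, edgeR adjusted p 0.0170), where 26.5% of genes were called higher. Without wildtype adipocytes replicate 2 the value was 0.46 with an adjusted p of 0.0714 in edgeR, and without IF adipocytes replicate 1 it was 0.42 with 0.0677. In the fit of only those 2 groups it was 0.58 with 0.0762, so the call rests on single libraries and on the spread shared with the other lines.

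Egfr in IF adipocytes was 101, 262 and 130 CPM. Replicates 1 and 3 lay below all wildtype adipocytes (256 to 295) and replicate 2 lay among them. The log2 fold change of -0.71 ± 0.28 did not pass (edgeR adjusted p 0.0562). Without replicate 2 it was -1.22 with an adjusted p of 0.000117. Esr1 was 17.3, 22.97 and 18.4 CPM, overlapping wildtype (0.43 ± 0.20, edgeR adjusted p 0.0919). Without wildtype adipocytes replicate 1 this difference was 0.66 with an adjusted p of 0.0157 in edgeR.

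Against the other mutated lines, IF adipocytes differed in 5 of 6 values, and these were the only calls among 36 values between mutated lines in 4 tissues. IF adipocytes had more Erbb2 than PS and IFPS adipocytes, less Egfr than both, and more Esr1 than IFPS adipocytes. In edgeR, PS against IF gave -0.48 ± 0.18 for Erbb2 (adjusted p 0.0395) and 0.95 ± 0.28 for Egfr (0.0158). IFPS against IF gave -0.59 ± 0.20 for Esr1 (0.0276), -0.52 ± 0.18 for Erbb2 (0.0270) and 0.92 ± 0.28 for Egfr (0.0176). In these comparisons 52.7% and 53% of all genes passed. In the comparisons with no receptor call, the share was 0% in all 3 of pads, 0.0681%, 0.0681% and 0.742% in MECs (IFPS against PS, PS against IF and IFPS against IF), 0.028% for IFPS against PS adipocytes, and 40.5%, 4.78% and 31.4% in fibroblasts. Esr1 in the 3 IFPS adipocyte libraries (14.2, 12.3 and 12.9 CPM) lay below all 3 PS libraries (17.1, 23.1 and 17.6), by -0.57 ± 0.20. This did not pass (edgeR adjusted p 0.640), and 19.5% of genes had IFPS and PS adipocytes that did not overlap. An F test among the 3 mutated lines passed for all 3 receptors in adipocytes (edgeR adjusted p 0.0452 for Esr1, 0.0413 for Erbb2 and 0.0259 for Egfr, with 51.8% of genes called) and for none of them in pads, MECs or fibroblasts (0%, 0.184% and 42.7% of genes). Leaving out IF adipocytes replicate 3 left 1 of the 5 calls, and leaving out replicate 1 left 2.

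These libraries also held more transcripts of the other cell types. The MEC-enriched score was 1.04, -0.77 and 0.87 in IF adipocytes replicates 1, 2 and 3, against -1.72 to -1.18 in wildtype adipocytes. The fibroblast-enriched score was 1.46, 0.86 and 1.37, against a wildtype mean of -0.19 ± 0.15 (SD, n = 3), and the adipocyte-enriched score was 3.81, 4.50 and 4.14, against 4.12 ± 0.24. Replicate 2, with the lowest MEC-enriched score of the 3, had the Egfr and Erbb2 levels closest to wildtype and the Esr1 level farthest from it. As given above, wildtype MECs hold more Erbb2, less Egfr and less Esr1 than wildtype adipocytes. Wildtype fibroblasts hold more Erbb2, less Esr1 and Egfr in an overlapping range. Esr1 in IF adipocytes was not lower than in wildtype (log2 fold change 0.43, not passing). The part of other cells in the IF adipocyte values was not tested.

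The IF effect on Egfr differed between cell types in an F test whose call rests on single libraries. IF against wildtype gave -0.71 in adipocytes, 0.04 in fibroblasts and 0.00 in MECs, and an F test that the 3 effects were equal passed in edgeR (adjusted p 0.0272, with 45.1% of genes called). The call was lost without IF adipocytes replicate 1 (edgeR adjusted p 0.121), IF adipocytes replicate 3 (0.118) or wildtype adipocytes replicate 3 (0.0639), with RLE size factors (0.0515) and without a filter on low counts (0.0539). Esr1 (0.215) and Erbb2 (0.192) did not pass this test. For PS and IFPS none of the 3 genes passed it, with 8.88% and 1.39% of genes called.

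In tumors the question was how far the receptors had moved from the pads of the same line. Esr1 was lower in tumors of IF and PS, Egfr was lower in IF tumors, and Erbb2 lay above all pads of the line in most IF and PS tumors without passing the test. Of 9 values, 3 passed, all lower, when 23.3% of 17227 genes passed for IF, 38.9% for PS and 27.9% for IFPS. The share of genes that were called lower was 13.2%, 20.8% and 12.3%.

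Esr1 in IF tumors was 39.2, 5.68, 14.6, 22.04 and 41.8 CPM, and the 3 IF pads held 57.8, 74.6 and 77.1. All 5 tumors lay below all pads, as 34.3% of genes did in one direction or the other. The log2 fold change was -1.49 ± 0.47 (edgeR adjusted p 0.0222). In PS, tumors ran from 12.2 through a median of 24.6 to 68.0 CPM and pads from 38.6 through 66.5 to 151. Here 7 of 9 tumors lay below all pads, a partial split for which no share over all genes was computed. The difference was -1.36 ± 0.34 (edgeR adjusted p 0.00256). In IFPS, tumors ran from 19.1 through 46.2 to 52.5 CPM and pads from 45.9 through 52.6 to 112, and -0.61 ± 0.34 did not pass (adjusted p 0.179 in edgeR). The difference between the lines did not pass either (F test of equal tumor effects, adjusted p 0.547, with 0.296% of genes called).

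Egfr in IF tumors was 11.01, 15.51, 34.8, 27.4 and 48.7 CPM, below the 57.1 to 78.4 of IF pads in all 5 tumors. IF tumors and pads did not overlap for 34.3% of genes. The log2 fold change was -1.30 ± 0.41 (edgeR adjusted p 0.0213). PS tumors (21.01 to 59.6 CPM, median 40.5) and IFPS tumors (10.3 to 80.8, median 47.5) overlapped their pads, with -0.30 ± 0.30 and -0.09 ± 0.30, and did not pass (0.430 and 0.851). The F test of equal effects gave an adjusted p of 0.324 in edgeR, so the IF decrease is not shown to be particular to IF. Both IF calls are close to the threshold: in fits of only IF tumors and pads the adjusted p was 0.0792 for Esr1 and 0.0666 for Egfr, and each was lost in 4 of 8 fits without 1 library. The libraries whose loss ended the Esr1 call were pads replicates 2 and 3 and tumors replicates 2 and 3, and for Egfr pads replicates 2 and 3 and tumors replicates 1 and 2. For PS, Esr1 against pads numbered 13 to 21 alone was -0.97 with an adjusted p of 0.115 in edgeR.

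Erbb2 in IF tumors was 44.7, 37.6, 39.4, 41.5 and 52.5 CPM, above all 3 IF pads (26.9, 27.4 and 26.3), where 34.3% of genes had groups that did not overlap. PS tumors ran from 30.1 through a median of 50.6 to 83.1 CPM, and 8 of 9 lay above all 6 PS pads (31.3 to 33.9). No share over all genes was computed for this partial split. The log2 fold changes of 0.70 ± 0.68 and 0.70 ± 0.49 did not pass in the fit of the 3 lines together (edgeR adjusted p 0.461 and 0.260). Their wide errors share one estimate of spread with the IFPS tumors. In fits of 1 line alone, with the tumors and pads of that line, both passed: 0.71 ± 0.13 in IF (adjusted p 0.00707) and 0.77 ± 0.17 in PS (0.00145). In those fits 27% of all genes passed in IF and 53.2% in PS.

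The IFPS tumors fell into separate sets for Erbb2. Replicates 6, 8 and 9 had 4.16, 0.45 and 2.06 CPM (116, 13 and 32 counts), and the other 6 had 29.5 to 58.5. The remaining 20 tumors of all lines ran from 29.5 to 83.1, so no tumor lay between 4.16 and 29.5. These 3 tumors lay below every pad, MEC, adipocyte and fibroblast library too, where the lowest value was 8.42. The share of all genes that split these 3 tumors from the rest was not computed, so the gap does not set Erbb2 apart. The same 3 had the lowest MEC-enriched scores of the 23 tumors, at 0.38, -0.59 and -1.24, against 2.31 to 2.46 in the other 6 IFPS tumors and 1.61 to 2.62 in the other 20. Their fibroblast-enriched scores were 1.01 to 1.62 and their adipocyte-enriched scores 1.08 to 3.51. The part of lower epithelial content in the low Erbb2 was not tested.

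**Figure D3:**
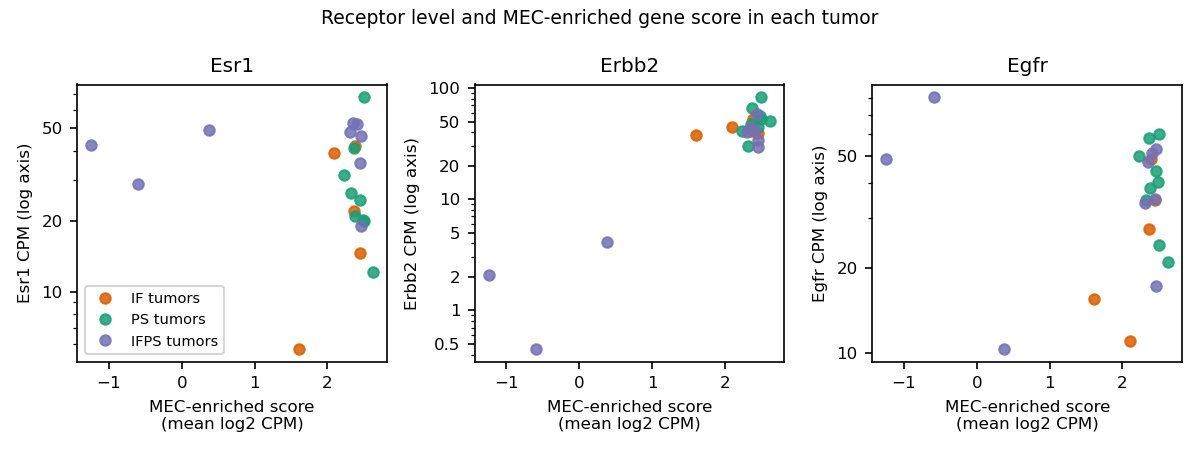
CPM (log axes) of Esr1, Erbb2 and Egfr in the 23 tumors against the MEC-enriched score, the mean log2 CPM of 1020 genes higher in wildtype MECs. The 3 IFPS tumors with scores of 0.38 or less had Erbb2 of 4.16 CPM or less, and their Esr1 and Egfr lay within or near the range of the other tumors, apart from Egfr at 80.8 and 10.3.

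The other receptors did not follow Erbb2 in these 3 tumors. Their Esr1 was 49.0, 29.0 and 42.2 CPM, inside the 19.1 to 52.5 of the other 6 IFPS tumors. Their Egfr was 10.3, 80.8 and 48.9, which holds both the lowest and the highest of all 23 tumors. Without the 3 tumors, a choice made with their Erbb2 known, IFPS tumors had a log2 fold change of 0.59 ± 0.17 in Erbb2 against pads in place of 0.03 ± 0.48, and no test is read from that value. The IF and PS values, whose libraries were all kept, were 0.72 ± 0.22 (edgeR adjusted p 0.0106) and 0.71 ± 0.16 (0.000444), and both passed, when 41.2% and 52.1% of genes did. Their smaller errors come from a shared spread that the choice of tumors lowered. Esr1 in IFPS tumors was then -0.57 ± 0.39 (adjusted p 0.234 in edgeR, with 49.6% of genes called) and Egfr -0.14 ± 0.28 (0.703).

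The mean scores of the cell type gene sets also differed between pads and tumors. The mean adipocyte-enriched score was 3.02 to 3.15 in the pad groups and 1.52 to 1.93 in the tumor groups. The fibroblast-enriched score was 1.69 to 1.86 in pads and 0.55 to 1.01 in tumors, and the MEC-enriched score was 1.52 to 1.79 in pads and 1.44 (IFPS), 2.18 (IF) and 2.43 (PS) in tumors. Their part in the receptor differences was not tested.

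Against MECs of the same line, tumors held far more Esr1. All 23 tumors lay above the MECs of their line (52.9%, 48.8% and 30.2% of genes had IF, PS and IFPS groups without overlap), with log2 fold changes of 2.55 ± 0.52 in IF, 2.86 ± 0.51 in PS and 3.29 ± 0.52 in IFPS (edgeR adjusted p 0.000317, 5.24e-05 and 1.51e-05), or 5.84-fold, 7.24-fold and 9.76-fold. In all 5 of 9 values passed, when 42.8%, 45.9% and 44.2% of genes passed for IF, PS and IFPS. The median over all genes in these comparisons was shifted by 0.14, 0.10 and 0.20 on the log2 scale. Egfr was lower in tumors: -1.60 ± 0.44 in IF (edgeR adjusted p 0.00461), with 5 of 5 below all IF MECs, -0.87 ± 0.39 in PS (0.0686), with 9 of 9 below, and -0.95 ± 0.39 in IFPS (0.0494), with 8 of 9 below. The IFPS call was lost with DESeq2 (adjusted p 0.0523) and without any 1 of the IFPS MEC libraries. Erbb2 did not pass in any line (0.04 ± 0.73, 0.32 ± 0.68 and -0.30 ± 0.66), and these intervals are wide, from -1.40 to 1.47 in IF.

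Between tumors of different lines 0 of 9 values passed in edgeR, and 0 of 9 had an unadjusted p under 0.05. The F test over the 3 lines passed for none of the 3 genes (7.65% of genes called). Few genes passed at all, 0% between IFPS and PS, 2.48% between PS and IF and 4.25% between IFPS and IF. DESeq2 called 0 of the 9 as well. The largest difference was in Erbb2, -0.90 ± 0.54 in IFPS against PS tumors, which was -0.35 ± 0.18 without the 3 low tumors.

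The balance of Erbb2 to Egfr within a library was higher on average in IF and PS tumors than in pads of the same line. In IFPS tumors the mean was lower through 3 tumors, while the other 6 lay above the mean of IFPS pads. The balance is given as the log2 ratio of the CPM values, which is not corrected for gene length, so a ratio of 0 does not mean equal transcript numbers and only differences between libraries are read. In pads the group means were -1.34 to -0.64 and in MECs -1.32 to -0.85. In fibroblasts they were -4.05 to -3.70, and in adipocytes -4.77 ± 0.27 (SD, n = 3) in wildtype and -3.36 ± 0.98 in IF. IF tumors averaged 0.84 ± 0.81 (n = 5) and PS tumors 0.37 ± 0.76 (n = 9), while IFPS tumors averaged -1.41 ± 2.80 (n = 9) beside -0.70 ± 0.30 (n = 6) in IFPS pads. All 5 IF tumors, 5 of 9 PS tumors and 3 of 9 IFPS tumors had a ratio over 0, and 0 of the 57 normal libraries did. The cut at 0 is arbitrary: the highest normal library, IFPS pads replicate 4, was at -0.24, and the lowest PS tumor, replicate 5, at -0.29. The 3 IFPS tumors of low Erbb2, replicates 6, 8 and 9, had ratios of -1.31, -7.49 and -4.57. The other 6 ran from -0.64 to 0.77, though the 3 were set apart with their Erbb2 known. The ratio was not tested, since it joins the values given above.

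**Figure D4:**
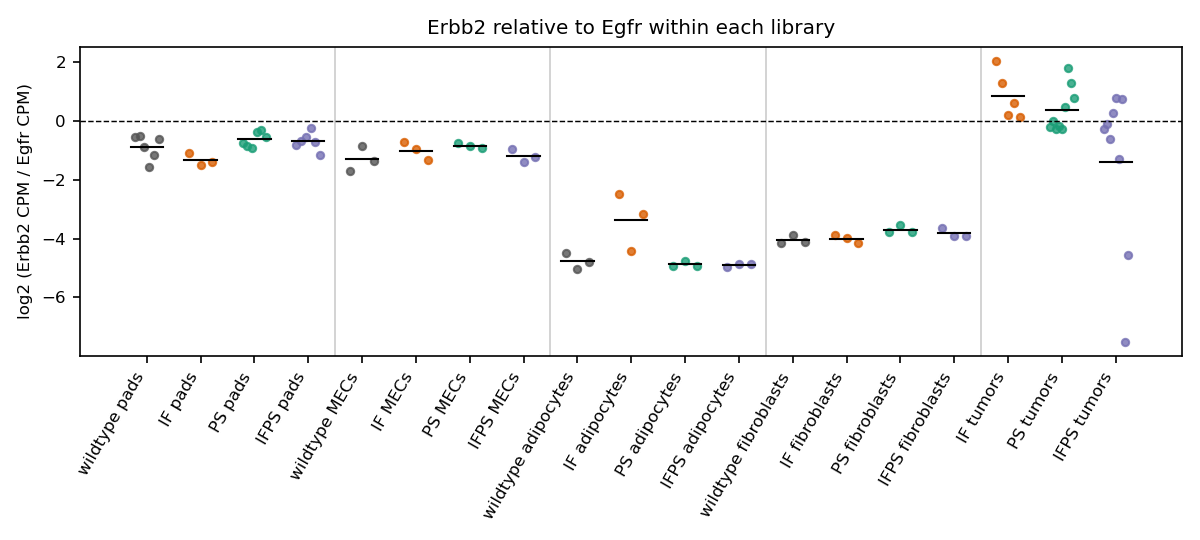
Log2 ratio of Erbb2 CPM to Egfr CPM in each of the 80 libraries (points) with group means (bars). Normal libraries all lay under 0, adipocytes and fibroblasts lowest, while all 5 IF tumors lay over 0. IFPS tumors spread from -7.49 to 0.77, with IFPS tumors replicate 8 below every other library.

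Within PS tumors, Esr1 and Egfr varied together. The tumors with most Esr1, replicates 4 (68.0 CPM) and 5 (41.2), also had most Egfr (59.6 and 57.7), and the tumors with least Esr1, replicates 8 (12.2) and 7 (20.1), had least Egfr (21.01 and 24.2). Over the 9 tumors Pearson's r on log2 CPM was 0.859 (exact permutation p 0.00261, adjusted 0.0183) and Spearman's rho 0.883 (exact permutation p 0.00308, adjusted 0.0215), both two-sided. Without the 2 tumors farthest from the median Esr1, r was 0.758 over 7 tumors. In IFPS tumors the same relation had r 0.154 (exact permutation p 0.704) and rho -0.05 (0.912). The difference between the lines was not tested. Of 12 relations considered (3 pairs of genes and each gene with the MEC-enriched score, in PS and IFPS tumors), 7 were computed and the p-values adjusted over them. The other 5 involve Erbb2 or the score in IFPS tumors, where 3 tumors stand apart from 6 and no pooled r is given. In PS tumors no other relation passed: Esr1 with the MEC-enriched score had r -0.383 and Egfr with it -0.536. Replicate 4 had the fewest counts of all libraries, 17344717.

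**Figure D5:**
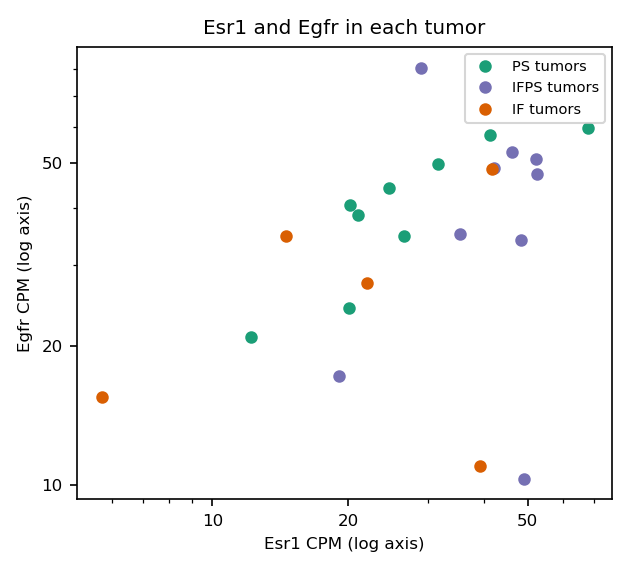
Egfr CPM against Esr1 CPM (both log axes) in the 23 tumors, colored by line. The 9 PS tumors climb together from 12.2 and 21.01 CPM to 68.0 and 59.6 CPM, while IFPS and IF tumors scatter.

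Over the 19 group means of log2 CPM, Esr1 and Egfr were inversely related (Pearson r -0.599), as were Erbb2 and Egfr (-0.744), and Esr1 and Erbb2 had r 0.127. These are descriptions over groups that share lines and tissues. Among 17789 expressed genes the identifier most like Esr1 was ENSRNOG00000012294 (r 0.987 over 19 groups), with a median of 48.7 CPM in pads, 28.5 in tumors, 20.1 in adipocytes, 6.72 in MECs and 2.96 in fibroblasts. The identifier most like Erbb2 was ENSRNOG00000023177 (r 0.949), which ran down to 0.06 CPM in its lowest tumor against a tumor median of 122. The identifier most like Egfr was ENSRNOG00000018051 (r 0.982), with medians of 86.4 CPM in adipocytes, 74.1 in fibroblasts, 33.0 in MECs, 18.1 in pads and 13.6 in tumors.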

How the data were processed

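The deposited raw counts per gene were used with no change. Per the labels' protocols, poly(A) libraries from 500 ng of RNA were sequenced as paired reads of 50 bp. Per the submitters' processing notes, Trim Galore and STAR 2.5.2b were used with Rnor_6.0. The counting tool and whether it used strand are not given in the sources used here, so reads of overlapping or antisense genes may be shared. Groups come from the tissue and genotype labels, columns from the sample titles.

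Tests used edgeR 4.0.16 (quasi-likelihood, TMM, filterByExpr, Benjamini-Hochberg over all genes) in R 4.3.3. Each normal tissue had 1 fit with its 4 lines, and pads also had the title number set as covariate. Wildtype cell types, tumors with pads, tumors with MECs, and tumors alone each had 1 fit. Scores and correlations used log2 CPM with a prior count of 2. Exact permutation p-values came from all orderings of the tumors, computed directly, with ranks from scipy 1.17.1. Alternatives were RLE factors, no filter, DESeq2 1.42.0, 2-group fits, 1 set of pads, a replicate block and leaving out 1 library. Not every library was left out. Comparisons of pads between lines left out only IF pads, and those of wildtype cell types only wildtype libraries. Tumors against MECs left out only MECs and IF tumors. The code was tested on simulated counts.

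The genes described are the 3 members and, for each, the 1 identifier with the highest correlation over groups. Members and lists were chosen with earlier results of these data known. Lists of ligands, targets, cofactors and cell type markers could not be matched and are not analysed here.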

Additional observations from a re-analysis of the deposited data

Results flagged for a closer look

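The effect of the IF line on Egfr differed between cell types, with an adjusted p of 0.0272 in the F test of edgeR over 36 libraries of MECs, adipocytes and fibroblasts. It was 1 of 12 such tests past the threshold (3 lines in the normal cells and the tumor effect across lines, for 3 genes). IF against wildtype was -0.71 ± 0.28 (SE, log2) in adipocytes, 0.04 ± 0.11 in fibroblasts and 0.00 ± 0.08 in MECs. The call held in 15 of 18 fits without 1 IF or wildtype library, and was lost in the 3 named above. Without IF adipocytes replicate 2 the adjusted p was 5.30e-07. These alternatives were added after the data were seen. Among the 3 IF adipocyte libraries the MEC-enriched score, given above, was lowest where Egfr was highest, and its part was not tested. Dixon's criterion, under which chance marks about 1 in 20, was applied to each gene in groups of 4 to 10 libraries. These were the wildtype, PS and IFPS pads and the tumor groups. Of the 18 sets of values, 0 held a single library that stood apart. Groups of 3 libraries, the IF adipocytes and all other cell groups among them, were not checked.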

How the results depend on the processing

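All 9 differences between wildtype cell types kept direction and call in the 54 values from 9 fits without 1 library and in 45 values with other settings, the replicate block on the title numbers included (2.55 for Esr1, 1.02 for Erbb2 and -1.72 for Egfr in MECs against fibroblasts). Same-numbered libraries deviated together in 11 of 12 pairs of MECs and fibroblasts, 1 of 12 of MECs and adipocytes and 3 of 12 of adipocytes and fibroblasts (correlation over 0.1). Between MECs and fibroblasts, 24 of 24 libraries correlated best with their own number, against 10 of 24 for each pairing with adipocytes. This is a hint from the data, not from the labels, and not every pair passed, so the block stayed an alternative. With the replicate block, added later, the F test of the IF effect on Egfr across cell types had an adjusted p of 0.0195, and 7278 genes were called in place of 7178.

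In fits of only the 2 groups compared, tumors against pads gave -1.48 (Esr1, IF) and -1.28 (Egfr, IF), no longer past the threshold, and 0.71 (Erbb2, IF) and 0.77 (Erbb2, PS), now past it. Against MECs they gave -0.85 (Egfr, PS), now past it, and -0.94 (Egfr, IFPS), not past it. Egfr in IFPS tumors against MECs was also lost with RLE (-0.92), without the filter (-0.95) and with DESeq2 (-0.92). Leaving out the 3 IFPS tumors with low MEC-enriched scores, added after the data were seen, brought Erbb2 against pads past the threshold in IF (0.72) and PS (0.71), and Egfr against MECs in PS (-0.86). Erbb2 in IFPS tumors against pads was then 0.59, a value the choice of tumors fixed and from which no test is read. It turned Erbb2 in IFPS tumors against MECs to 0.25 and Egfr in IFPS against PS tumors to -0.0722. With pads 13 to 21 Esr1 in PS tumors was -0.97 and not past the threshold. Counts of calls against wildtype were 3 with DESeq2 and 0 in 2-group fits. Between mutated lines, added later, 2-group fits gave 1.

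Values that were not called and turned sign were, against wildtype pads, Esr1 in IF in the 2-group fit (0.13), and with pads 1 to 12 Esr1 in IF (0.12) and PS (0.56) and Egfr in PS (0.36) and IFPS (0.0063), with Erbb2 in IFPS tumors against pads (-0.0178).

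Leaving out 1 library gave these ranges. Tumors against pads: Esr1 IF -1.74 to -1.21 and Egfr IF -1.59 to -1.08 (call lost in 4 of 8 each), Erbb2 IFPS -0.17 to 0.23, Egfr IFPS -0.26 to 0.0399. Tumors against MECs: Erbb2 IF -0.10 to 0.17 and Egfr IFPS -1.01 to -0.90. For IFPS only MEC libraries were left out here, so this range does not show how far single tumors move the value. Egfr in IFPS against PS tumors: -0.17 to 0.14. MECs against wildtype: Esr1 -0.43 to 0.23 (IF), -0.48 to 0.18 (PS) and -0.42 to 0.24 (IFPS), Egfr -0.0636 to 0.065 (IF) and -0.12 to 0.0041 (IFPS), Erbb2 -0.0868 to 0.21 (IFPS). Adipocytes: against wildtype IFPS Esr1 -0.33 to 0.0777 and Erbb2 -0.0432 to 0.16, IFPS against PS Erbb2 -0.0925 to 0.0615 and Egfr -0.13 to 0.12, PS against IF Esr1 -0.17 to 0.11. Fibroblasts against wildtype: Egfr IF -0.0657 to 0.10, Esr1 PS -0.53 to 0.27 and IFPS -0.10 to 0.70. Calls against wildtype numbered 0 to 2 and between mutated lines 1 to 5. The cause of these shifts was not tested.

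Counts of all genes called moved more: in 2-group fits IF, PS and IFPS MECs against wildtype had 23, 36 and 10 genes in place of 120, 347 and 55, and with DESeq2 650, 882 and 217. IF adipocytes had 4324 in place of 6893, PS fibroblasts 1265 in place of 3016, and IFPS tumors against pads 2346 in place of 4814. DESeq2 called 1173 genes between IFPS and PS tumors where edgeR called 0. Esr1 in fibroblasts, at 12 to 49 counts, allows no firm statement on lines.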
